A study of Mus musculus with 8 samples.

Results

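Stmn2 Apod Zic4 mesenchyme at E13 is a set of mesenchymal cells from embryonic mouse back skin, chosen by the detection of a small marker set. The markers are Stmn2, Apod, Tmem132c and Zic4, and a cell was a member when at least 3 of these 4 genes had a UMI (unique molecular identifier, 1 counted RNA molecule). Cells first had to pass a mesenchymal gate: at least 1000 genes, at most 10% mitochondrial UMIs, fewer than 3 of 6 epithelial genes detected (Epcam, Cdh1, Cldn7, Esrp1, Grhl2, Rab25), no UMI of Cdh5, Ptprc, Sox10, Myog or Rgs5, and at least 1 UMI of Twist2 or Prrx1. Of 3991 barcodes at embryonic day 13 (E13), 3894 passed the filter, 2191 passed the whole gate and 609 were members, which is 27.8% of gated cells and 15.6% of barcodes that passed the filter. The comparison cells, called the reference, were the 907 gated cells with 0 or 1 of the 4 markers, and 675 cells with exactly 2 markers lay in between.

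The study took dissected back skin, made single cells with collagenase and trypsin and built 10x Genomics 3' libraries. It compared mice without p63 with controls, p63 being the transcription factor that stratified epithelium depends on. The groups at E13 were wild-type (WT), ΔNp63-GFP knock-in heterozygous (HET) and ΔNp63-GFP knock-in knockout (KO) embryos. There was 1 WT library, 1 HET library and 2 KO libraries, called KO 1 and KO 2, and the same set was made at E15. WT and HET formed the control (n = 2) against KO (n = 2). HET carries the knock-in on 1 allele, the labels do not say whether a library pooled embryos, and nothing states that the 2 KO libraries came from separate litters, so p-values measure only the spread between these libraries. Values for the 4 E13 libraries are given below in the order WT, HET, KO 1 and KO 2.

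Zic genes encode zinc-finger transcription factors known from the dorsal neural tube and from dorsal somites, which give rise to the dermis of the back. Canonical Wnt signalling acts through beta-catenin on LEF/TCF factors, induces feedback genes such as Axin2, Nkd1 and Notum, and is required to specify dorsal dermis. Stmn2 encodes a microtubule-binding stathmin best known from growing axons, Apod encodes apolipoprotein D, a secreted lipid-binding lipocalin, and Tmem132c encodes a single-pass membrane protein.

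The 4 marker genes lie on 4 different chromosomes (GRCm38, GENCODE M21), and 1 of them has a close neighbour that the rule did not use. Stmn2 (ENSMUSG00000027500) is on chromosome 3 from 8509360 to 8561606, Apod (ENSMUSG00000022548) on chromosome 16 from 31296192 to 31314808, and Tmem132c (ENSMUSG00000034324) on chromosome 5 from 127241808 to 127565793. Zic4 (ENSMUSG00000036972, chromosome 9, 91362413 to 91389348, plus strand) overlaps Zic1 (ENSMUSG00000032368, chromosome 9, 91358058 to 91365810, minus strand), and the RefSeq starts of the pair are 3204 bases apart. Whether the authors' counting used strand is not given in the sources used here. Since Zic1 was high in the same cells as Zic4, the 208 bases upstream of Zic1 that no GENCODE M21 exon covers (RefSeq promoter table, GRCm38.p6, chr9:91365811-91366018, minus strand) are shown, with matches to GGGCGG and CCAAT in capitals on either strand:

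Zic1 upstream: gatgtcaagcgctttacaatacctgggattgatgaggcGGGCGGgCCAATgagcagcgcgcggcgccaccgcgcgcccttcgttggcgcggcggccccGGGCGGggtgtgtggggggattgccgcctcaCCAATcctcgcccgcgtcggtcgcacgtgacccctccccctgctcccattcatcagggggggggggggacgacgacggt

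This stretch holds 2 matches to each motif and 0 to TATAAA, and no 2 matches overlap. In windows of the same length from all 32851 promoters of the table, 26.2% held GGGCGG, 29.6% held CCAAT and 9.47% held TATAAA. Its GC content was 71.2% against a median of 51.9%.

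Depth and library quality set limits on all that follows. The E13 libraries held 17191558 to 26456164 UMIs. Members were deeper than the reference in every library, with median UMIs of 20369, 19146, 18399 and 17962 against 14913, 13501, 14923.5 and 14789. The reference held 75 cells with over 5% haemoglobin UMIs (8.27%) and members held 0 of 609, which allows a share of up to 0.493%. Cells with at least 2 of 6 muscle genes numbered 138 of 907 in the reference and 96 of 609 among members. By library they were 14 of 227, 71 of 365, 37 of 236 and 16 of 79 in the reference. Among members they were 8 of 150, 24 of 119, 30 of 221 and 34 of 119. KO 2 kept 37.4% of its filtered barcodes in the gate against 59.1 to 62.3% in the other libraries. The E13 libraries shared 5 barcodes in all and no member barcode. A doublet score marked 3 members and 4 reference cells. Trp63, the targeted gene, had 847, 519, 19 and 20 UMIs in cells with at least 3 epithelial genes, and 12, 2, 0 and 2 UMIs in members (0 UMIs in KO 1 allows up to 0.693 CPM, UMIs of a gene scaled to a common total per library).

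The label was checked against markers first. Mesenchymal identity was set largely by the gate, which asked for Twist2 or Prrx1. Detection alone separates little here, because Col1a1 was found in 100% of members and Hba-a1, a haemoglobin gene, was too. Of mesenchymal genes outside the gate, Twist1 was detected in 89.2% of members and 59.9% of the reference, Pdgfra in 78.5 and 55.6%, and Dcn in 90.3 and 92.1%. The neuronal list was divided. Elavl3 and Dcx had 1 UMI each over all members, Rbfox3 had 1 and Pou4f1 had 0. Snap25 was detected in 2.79% of members and Stmn3, the paralog of Stmn2, in 2.46%. Tubb3 had 661 UMIs and was detected in 36.3% of members against 11.9% of the reference, and Syt1, a synaptic vesicle protein, in 6.57 against 1.21%. Summed over the list, neuronal genes were at 308.6 to 360.5 CPM in members and 158.8 to 247.2 in the reference. The list's median log2 difference was -0.50, but 0.79 over 5 genes without red-cell and muscle barcodes and 1.24 over 2 genes with cells thinned to 5000 UMIs. Cartilage and tendon genes were divided as well. Acan and Matn1, which define cartilage, had 0 UMIs, while Col2a1, the main cartilage collagen, was detected in 13.3% of members against 1.54% of the reference and Col9a1 in 19.05 against 6.28%. Sox9, also on the cartilage list, was detected in 2.30% of members and 4.96% of the reference. Of 6 tested cartilage genes 4 were higher in all 4 libraries and 1 lower, and of 9 tendon genes 3 were higher and 2 lower. Over all genes tested, 15.5% were higher and 15.8% lower in all 4 libraries. Scx, which marks tendon progenitors, was detected in 4.93% of members and 7.61% of the reference, and Tnmd in 41.4 and 9.48%. Of 14 deep dermis and fascia genes 1 was higher and 4 were lower (median -0.27). Of 14 superficial dermis genes 4 were higher and 2 were lower (median 0.06, and -0.22 with cells thinned to 5000 UMIs). Tissue position was not measured.

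How the 4 markers combined differed from cell to cell. All 4 were detected in 182 members (29.9%), while 297 (48.8%) lacked Stmn2, 72 lacked Apod, 44 lacked Zic4 and 14 lacked Tmem132c. Tmem132c was the least selective, with a UMI in 78.2, 77.2, 74.7 and 79.7% of all gated cells. In members, the summed Zic4 level was even across libraries at 144, 121, 139 and 120 CPM, scaled by the trimmed mean of M-values (TMM), against 8.77, 6.58, 8.11 and 8.34 in the reference. Apod stood at 116, 80.9, 191 and 161 TMM-scaled CPM in members and Tmem132c at 211, 163, 174 and 175. Stmn2 was the least even, at 118, 182, 351 and 675 TMM-scaled CPM, and neither KO library overlapped a control library. These values chose the cells and are given as a description.

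Most of the Stmn2 signal came from few cells. The 96 members with 10 or more Stmn2 UMIs (15.8%) held 89.3% of all Stmn2 UMIs in members, while 135 members had a single UMI and 81 had 2 to 9. These high cells numbered 12 of 150, 14 of 119, 37 of 221 and 33 of 119 members, or 8, 11.8, 16.7 and 27.7%. Of 102 gated E13 cells with 10 or more Stmn2 UMIs, 96 (94.1%) were members, 6 had 2 markers and 0 of 907 were reference cells, which allows up to 0.331%; Stmn2 is itself a rule marker. Such counts were not particular to gated cells: 14 cells with at least 3 epithelial genes and 75 other barcodes outside the gate reached them. In KO 2 they were 12.1% of those other barcodes and 12.4% of gated cells. In the Stmn2-high cells Col1a1 stood at 1739, 1174, 1586 and 1549 CPM (plain CPM of summed UMIs) against 1603, 980, 1112 and 1254 in members without Stmn2. Col1a2, Twist1 and the gate gene Prrx1 were also higher in each library. The other gate gene, Twist2, was lower in each, at 837, 914, 755 and 591 CPM against 935, 956, 905 and 1051. Htra1, which encodes a secreted serine protease, stood at 337, 157, 269 and 223 CPM against 151, 68.0, 77.2 and 62.98. Dkk2, a secreted Wnt modulator, stood at 214, 278, 391 and 359 CPM against 149, 129, 115 and 96.4. Tubb3, the neuron-associated beta-tubulin, stood at 186, 85.3, 121 and 52.8 CPM against 45.9, 37.5, 33.6 and 27.6. Htra1, Dkk2 and Tubb3 were higher in the Stmn2-high cells of each of the 4 libraries. Agtr2, the type 2 angiotensin receptor, ran the other way at 28.6, 26.9, 40.3 and 57.2 CPM against 76.6, 83.6, 94.0 and 61.0. Elavl3 had 0 UMIs in the 96 high cells and Dcx had 1.

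**Figure D1:**
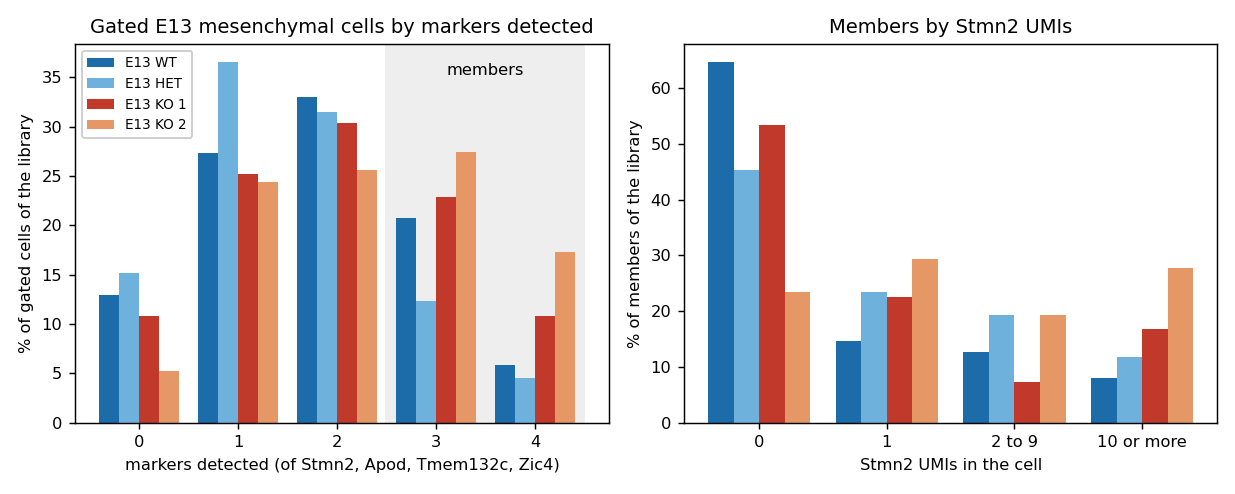
Left, percent of gated E13 cells of each library (bars) by how many of the 4 markers had a UMI, with the member range shaded. Right, percent of each library's members by the number of Stmn2 UMIs in the cell. KO 2 has the largest shares at 4 markers (17.3%) and at 10 or more Stmn2 UMIs (27.7%).

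**Figure D2:**
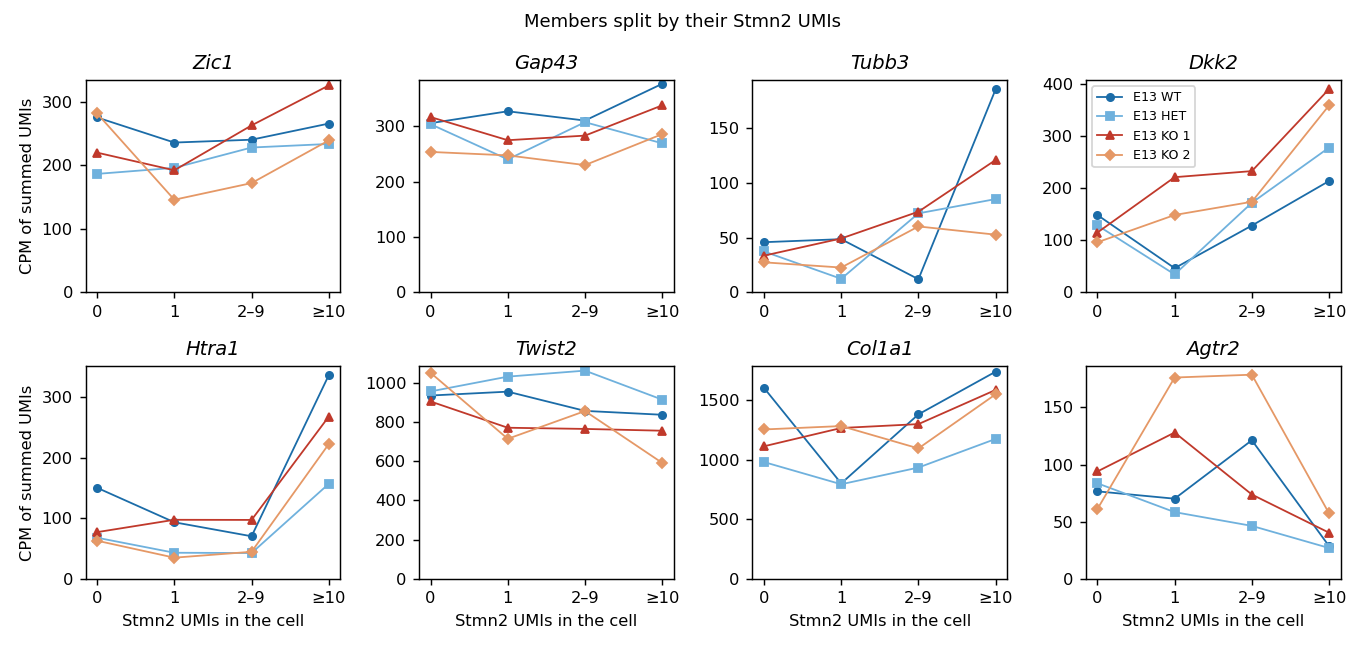
Plain CPM of summed UMIs (vertical axis, from 0) in members grouped by their Stmn2 UMIs (horizontal axis), 1 line per E13 library. Dkk2, Htra1 and Tubb3 are higher at 10 or more Stmn2 UMIs than at 0 in all 4 libraries.

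Detection outside the mesenchyme bears on the single UMIs. Stmn2 had a UMI in 14.1, 17.9, 27.3 and 62.2% of cells with at least 3 epithelial genes, at median depths of 35603, 33276.5, 43203 and 32604 UMIs. In gated cells the shares were 14.0, 17.3, 21.8 and 54.1% at 16352, 14919, 16390 and 16436.5. Of the epithelial cells, 1 of 135, 0 of 134, 3 of 99 and 10 of 148 had 10 or more Stmn2 UMIs. Whether Stmn2 UMIs in epithelial cells were free RNA, doublets or their own expression was not tested. With every cell thinned to 5000 UMIs the shares were 0, 2.24, 5.05 and 18.9% in epithelial cells and 7.46, 10.3, 11.6 and 28.2% in gated cells. Across libraries Stmn2 detection in epithelial cells was highest in KO 2, and low Stmn2 counts in KO 2 members cannot be told from that level. Apod and Zic4 had a UMI in 34.5 and 36.5% of KO 2 epithelial cells and in 13.3 and 14.1% of WT ones. Tmem132c had one in 58.8% of KO 2 and 37.8% of WT epithelial cells, and in 22.3% of KO 2 ones when thinned.

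The first comparison asked whether the share of members differed between KO and control at E13. Members made up 26.6, 16.9, 33.7 and 44.7% of gated cells (150 of 563, 119 of 706, 221 of 656 and 119 of 266, with 95% Wilson intervals of 23.2 to 30.4, 14.3 to 19.8, 30.2 to 37.4 and 38.9 to 50.7%, counting error only). Both KO libraries were above both control libraries, by 17.5 percentage points in the mean (39.2% ± 7.81 against 21.7% ± 6.92, SD, n = 2 and 2). The two-sided exact permutation test gave p = 0.333, the smallest that 2 against 2 libraries allow, so no call was possible. As a share of all barcodes that passed the filter, members were 16.6, 9.97, 20.4 and 16.7%, and KO 2 and WT were then level. Without Stmn2, counting cells with at least 2 of Apod, Tmem132c and Zic4 (a definition chosen after seeing the data), the shares were 55.8, 42.2, 60.4 and 56.4%, and the gap between KO and control was 9.39 points. Thinned to 5000 UMIs they were 7.48, 3.84, 10.8 and 15.2%.

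What else set members apart at E13 was described over 11490 genes, leaving out the genes of the rule and gate. No test was run, because the markers were chosen with these libraries' values known, and a gene was called when it was at least 2-fold apart in the same direction in each of the 4 libraries. By this rule 48 genes (0.418%) were higher and 65 (0.566%) were lower. By any amount in the same direction in all 4 libraries, 15.5% of genes were higher and 15.8% lower, and the median log2 difference of all genes was -0.01. Differences below are log2 means over libraries ± SD (n = 4). Scaling by library size alone shifts all differences by 0.14 upward at the median.

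Zic1 and Zic2 went with Zic4. Zic1 was at 248, 193, 226 and 206 TMM-scaled CPM in members and 82.4, 78.7, 88.9 and 78.8 in the reference, a log2 difference of 1.40 ± 0.13, and the 2 sets of libraries did not overlap. Zic2 was at 4.90, 9.95, 9.79 and 3.87 against 0.57, 0.18, 1.31 and 0.93 (2.52 ± 0.93). Both were at least 2-fold higher in each library, where 0.418% of all genes were. Zic5 had 15 UMIs in members and 0 in the reference, too few to be tested. Zic1 was also graded among gated cells, at 91.4, 152, 215 and 253 CPM (mean of 4 libraries, plain CPM) in cells with 1, 2, 3 and 4 markers. Across the threshold itself, the 675 cells with 2 markers and the 427 with exactly 3 stood at 152 ± 43.9 and 215 ± 37.2 CPM (SD, n = 4), and the level was higher at 3 markers than at 2 in each of the 4 libraries. Zic4 is itself 1 of the counted markers, and members differed by which marker was missing. In the 44 members without Zic4, pooled over libraries, Zic1 was at 140 CPM, Axin2 at 43.6, Nebl at 37.8 and Agtr2 at 227. In the 297 without Stmn2 these were at 239, 80.3, 104 and 83.0 CPM. Dkk2 ran the other way, at 169 CPM without Zic4 and 129 without Stmn2.

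Besides Zic1, 6 genes with at least 50 CPM were higher in each library by the same rule. Nebl, which encodes the actin-binding protein nebulette, was the steadiest, at 113, 74.9, 93.9 and 89.0 CPM in members and 27.7, 19.7, 26.4 and 22.2 in the reference (1.92 ± 0.09). Pid1, an adaptor that binds LRP1, had the widest range, from 79.5 to 152 CPM against 8.34 to 59.1 (2.29 ± 0.92), and KO 1 had the smallest gap. Lrrtm1, a leucine-rich repeat synaptic adhesion protein, differed by 1.75 ± 0.38, Htra1 by 1.65 ± 0.49 and Stard8, a RhoGAP with a lipid-binding START domain, by 1.57 ± 0.22. Axin2 stood at 90.1, 76.6, 70.8 and 77.4 CPM against 34.8, 34.7, 25.9 and 31.5 (1.30 ± 0.13), with no overlap. Its level also climbed with marker number, from 32.8 CPM at 1 marker to 48.0 at 2, 73.4 at 3 and 99.6 at 4.

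**Figure D3:**
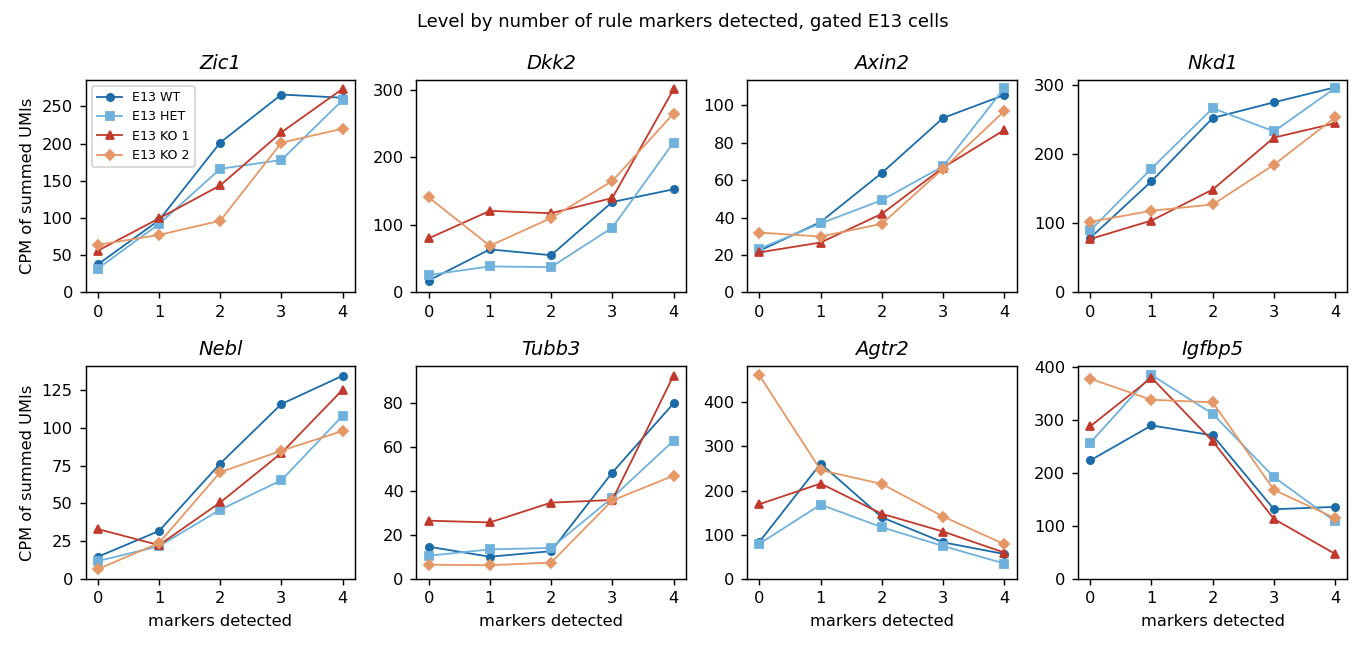
Plain CPM of summed UMIs (vertical axis, from 0) against the number of rule markers detected in the cell (horizontal axis) for 8 genes, 1 line per E13 library. Zic1, Axin2, Nkd1, Nebl and Tubb3 are higher and Igfbp5 is lower, as is Agtr2, at 4 markers than at 1 in all 4 libraries.

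Targets and feedback genes of Wnt signalling leaned the same way. Of the 13 tested genes of a 14-gene Wnt response list, 8 were higher in all 4 libraries and 0 were lower, with a median log2 difference of 0.63 where all genes were at -0.01. Twist2, the remaining list gene, was a gate gene and is not counted. Nkd1, a feedback inhibitor, stood at 263, 240, 223 and 210 CPM against 143, 162, 99.2 and 121 (0.85 ± 0.25). Notum, a secreted Wnt deacylase, differed by 1.27 ± 0.71, Twist1, a mesenchymal transcription factor, by 0.97 ± 0.10, and Tnfrsf19 by 1.01 ± 0.56. Lef1 itself was split, with 2 libraries in each direction (0.20 ± 0.75). The list's median was 0.94 with cells thinned to 5000 UMIs and 0.73 without red-cell and muscle barcodes. Among ligands and secreted inhibitors of the pathway, 4 of 16 were higher in all 4 libraries and 2 lower, a share near the background of all genes. Dkk2 was one of the higher ones at 130, 129, 186 and 202 CPM against 51.5, 36.7, 112 and 82.5, and the inhibitor Wif1 was another at 104, 62.99, 42.7 and 34.4 against 43.9, 46.2, 16.0 and 16.7.

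Of 17 tested BMP and TGF-beta ligands and inhibitors, 6 were higher in all 4 libraries and 2 lower (median log2 difference -0.06). Inhba, the activin beta-A subunit, differed by 1.02 ± 0.26, and Grem1, a secreted BMP antagonist, by 1.49 ± 0.69, with 36.9, 48.4, 47.2 and 54.1 CPM against 13.0, 23.6, 23.5 and 9.26. The BMP targets Id1 and Id3 were higher by 0.68 ± 0.26 and 0.69 ± 0.34. The BMP and TGF-beta response list was mixed, with 3 of 10 tested genes higher in all 4 libraries and 2 lower. Its median was 0.25, and -0.18 with cells thinned to 5000 UMIs. Bmp3 reached only 5.96 CPM in members against 1.60. In the Hox lists, Hoxb9 was higher by 1.62 ± 0.23 at low levels (12.4 against 3.57 CPM) while Hoxa9 and Hoxc10 were lower by -1.03 ± 0.30 and -0.39 ± 0.31, so posterior Hox genes were divided (3 of 13 higher, 3 lower). Neuron-associated genes were divided too: Tubb3 was higher by 1.79 ± 0.65 and Gap43 by 0.80 ± 0.25, and Nefl, Nefm and Isl1 were lower. Tnmd, a tendon and connective-tissue membrane protein, stood at 30.5, 39.5, 61.9 and 34.4 CPM against 3.40, 8.59, 23.0 and 7.42.

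The lower genes included a mesenchymal group and a blood group. In the mesenchymal group Igfbp5, a secreted IGF-binding protein, stood at 124, 156, 87.4 and 144 CPM in members against 287, 366, 363 and 359 (-1.45 ± 0.40), and Igfbp3 differed by -1.35 ± 0.40. Agtr2 stood at 71.2, 58.0, 87.7 and 114 CPM against 215, 150, 208 and 288 (-1.38 ± 0.15), with every member library below every reference library. Itm2a, a membrane protein of developing muscle and cartilage, differed by -1.34 ± 0.35, and Sepp1, the selenium carrier, by -1.38 ± 0.18. The fibrillar matrix list was evenly divided, with 6 of 22 genes higher and 6 lower in all 4 libraries and a median of 0.22. Single matrix genes that were lower in all 4 libraries were Dcn by -0.89 ± 0.40, Postn by -1.17 ± 0.40, Col6a3 by -1.003 ± 0.34 and Col14a1 by -1.33 ± 0.53. The growth factors Fgf7, Fgf9 and Fgf10 were each at least 2-fold lower in every library (-2.07 ± 0.43, -2.75 ± 1.20 and -1.81 ± 0.54), at no more than 6.11 CPM in members. Hes1, a Notch target, was lower by -1.14 ± 0.51 and Igf1 by -0.79 ± 0.71.

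The blood group held Alas2, which encodes the red-cell enzyme of haem synthesis, and the haemoglobin genes Hbb-bt, Hba-x, Hba-a2, Hba-a1, Hbb-bh1, Hbb-bs and Hbb-y. All 8 erythroid list genes were at least 2-fold lower in each library, and their summed level was 2867 to 4834 CPM in members against 35151 to 112847 in the reference. After the red-cell and muscle barcodes were left out, the list's median moved from -4.40 to -0.09, and 24 of the 65 lower calls and 29 of the 48 higher calls held. Immune genes were lower in all 4 libraries for 8 of 10 (summed level 10.1 to 33.1 CPM against 90.8 to 143), and muscle genes for 5 of 10. So were 4 of 8 tested epithelial genes outside the gate (median -1.52, and -1.72 without red-cell and muscle barcodes). Without those barcodes the fitted differences of the mesenchymal genes were as follows: Zic1 was at 1.26, Axin2 at 1.22, Nebl at 1.96, Agtr2 at -1.55 and Igfbp5 at -1.53.

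**Figure D4:**
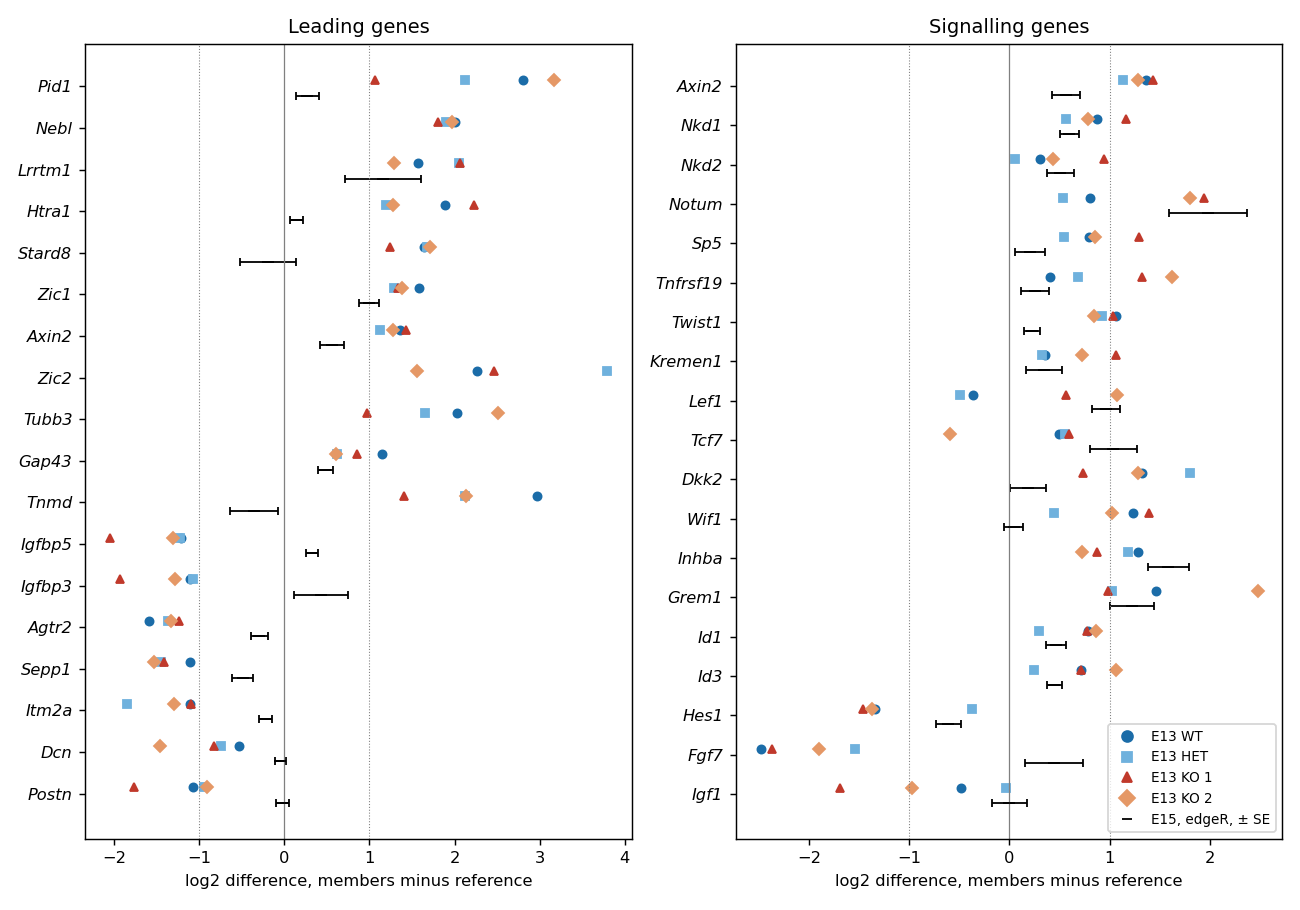
Log2 difference of members minus reference (horizontal axis; dotted lines at 2-fold) for the leading genes (left) and signalling genes (right), with 1 point for each E13 library, and the edgeR estimate at E15 as a bar of ± SE below it. Zic1, Axin2 and Grem1 lie above 0 at both ages, while Igfbp5 is below 0 in each E13 library and above 0 at E15.

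Of 21 genes of G2 and M phase, 16 were higher in all 4 E13 libraries and 0 lower (median 0.46), against 0 of 20 S phase genes in either direction (median -0.11). With cells thinned to 5000 UMIs and selected anew, the G2 and M median was 0.28, and without red-cell and muscle barcodes it was 0.54.

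The E15 libraries were not used to define the E13 set, and there the difference was tested. The same gate and rule gave 57, 70, 76 and 49 cells (WT, HET, KO 1, KO 2) and 1471 reference cells. These cells too were picked by UMIs of the 4 markers and were deeper than their reference (15915 against 12971 median UMIs in WT), so the test compares marker-positive with marker-poor cells at another age. Their marker mix was different: 39.5 to 48.6% of them lacked Apod and 11.4 to 28.9% lacked Stmn2, against 11.8 and 48.8% at E13. edgeR's quasi-likelihood test with library as a block found 257 of 9944 genes higher (2.58%) and 297 lower (2.99%) at an adjusted p under 0.05. Of the genes called higher at E13, 16 could be tested and 4 passed in the same direction, with 10 above 0 and a median log2 fold change of 0.37. Of those called lower, 45 could be tested, 23 passed in the same direction and 1 in the opposite one. Without red-cell and muscle barcodes 11 lower genes passed, and blood-cell lists fell together (8 of 8 erythroid and 10 of 10 immune genes). That 1 was Igfbp5, at 298, 334, 558 and 479 CPM in E15 cells that met the rule against 257, 295, 444 and 325 in the E15 reference (edgeR log2 0.33 ± 0.07 SE, adjusted p = 0.00412). It was lower in the E13 members and higher in the E15 cells. Of the other lower genes named at E13, Agtr2 did not pass at E15 (-0.29 ± 0.10 SE, edgeR adjusted p = 0.0953), nor did Itm2a (-0.22 ± 0.08, adjusted p = 0.126) or Igfbp3 (0.43 ± 0.32, adjusted p = 0.545), while Sepp1 fell (-0.49 ± 0.13, edgeR adjusted p = 0.0231).

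Among the higher genes Zic1 rose again, at 93.6, 87.9, 120 and 103 CPM against 67.8, 36.0, 52.9 and 52.3 (edgeR log2 0.997 ± 0.12 SE, adjusted p = 1.12e-05, higher in 4 of 4 libraries). Pid1 (0.27 ± 0.13), Htra1 (0.15 ± 0.08), Lrrtm1 (1.16 ± 0.45) and Stard8 (-0.19 ± 0.33) did not pass. Of 13 Wnt response genes, 6 rose and 0 fell (1 of 9 rose with cells thinned to 5000 UMIs): Axin2 (0.57 ± 0.14 SE), Lef1 (0.96 ± 0.14), Tcf7 (1.04 ± 0.24), Nkd1 (0.60 ± 0.09), Nkd2 (0.51 ± 0.14) and Notum (1.98 ± 0.39), all by edgeR. Of 17 BMP and TGF-beta ligands and inhibitors, 6 rose and 0 fell (4 of 12 when thinned). Inhba rose at 54.3, 79.7, 37.8 and 48.4 CPM against 12.8, 14.8, 22.2 and 21.3 (edgeR log2 1.58 ± 0.21 SE, adjusted p = 3.85e-05), and Grem1 rose by 1.22 ± 0.22. The Wnt amplifier Rspo3 rose by 1.13 ± 0.14 and the Wnt inhibitor Sfrp2 by 0.68 ± 0.10. Of 16 superficial dermis genes 6 rose and 0 fell (4 of 16 rose when thinned). Of 17 deep dermis and fascia genes 1 rose and 1 fell (0 rose and 4 fell of 14 when thinned).

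Of 10 dermal condensate genes, which mark the mesenchyme below a forming hair follicle, 8 rose at E15 and 0 fell (1 of 7 when thinned). Sox2 was at 24.1 and 16.4 CPM in the WT and HET cells that met the rule and 0 in both KO libraries, and Sox18 at 45.3 and 21.4 against 0 and 0, so those 2 folds came from the control libraries. Trps1 (edgeR log2 0.93 ± 0.11 SE), Enpp2 (1.04 ± 0.19), Ptch1 (0.85 ± 0.13), Tbx18 (0.47 ± 0.12), Foxd1 (1.88 ± 0.48) and Bmp4 (0.98 ± 0.28) also rose. At E13, 3 of the 6 tested genes of this list were higher in all 4 libraries. G2 and M genes rose for 17 of 21 at E15 (median 0.55), but with cells thinned to 5000 UMIs 0 of 21 passed and the median was -0.19, where all genes were at -0.12. Only 13, 18, 15 and 9 cells met the rule in that thinned set.

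The next comparison asked how members differed between KO and control at E13, over summed counts of each library. edgeR's quasi-likelihood test (2 residual degrees of freedom) found 23 of 10755 genes higher in KO (0.214%) and 24 lower (0.223%), and scaling by library size alone gave 12 and 22. CPM values here are TMM-scaled within this fit, so they differ slightly from the levels given above. The markers Zic4 (log2 -0.03 ± 0.13 SE), Zic1 (-0.03) and Axin2 (-0.18) showed no call. Stmn2 (1.77 ± 0.25) and Apod (0.84 ± 0.16) were higher in KO members, but they chose the cells and are given as description only.

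By the fixed lists, few pathway genes passed: 0 rose and 2 fell of 16 Wnt ligands and inhibitors, 0 of 13 Wnt response genes and 0 of 17 BMP and TGF-beta ligands and inhibitors passed, and 1 rose and 1 fell of 9 retinoic acid genes. Calb1, a calcium-binding protein, stood at 61.6 and 58.5 TMM-scaled CPM in WT and HET members and 14.4 and 16.7 in KO 1 and KO 2 (edgeR log2 -1.97 ± 0.17 SE, adjusted p = 0.000121). Crabp1, which binds retinoic acid in the cytoplasm, fell from 1602 and 1834 CPM to 999 and 885 (-0.87 ± 0.12). Wif1 fell from 108 and 66.2 to 44.7 and 36.1 CPM (-1.10 ± 0.21) and Rspo1, a Wnt amplifier, from 55.6 and 64.5 to 31.5 and 26.6 (-1.02 ± 0.16). Nrp1, a receptor for semaphorins and VEGF, fell from 308 and 391 to 144 and 203 CPM (-1.02 ± 0.16), and the transcription factor Runx3 from 16.2 and 18.8 to 3.49 and 6.77 (-1.88 ± 0.33). In all of these both KO libraries were below both control libraries. In the other direction Ptn, the secreted growth factor pleiotrophin, stood at 611 and 546 CPM in control members and 1152 and 1233 in KO members (1.04 ± 0.11 SE, edgeR adjusted p = 0.000565). Crabp2, the second retinoic acid binder, rose by 0.64 ± 0.13, Serpinf1, a secreted anti-angiogenic serpin, by 0.78 ± 0.14, and Col14a1, a fibril-associated collagen, by 1.33 ± 0.26. Col8a2, a basement-membrane collagen chain, rose by 1.95 ± 0.37 and Calml4 by 1.94 ± 0.36, at 2.09 to 18.2 CPM.

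The reference, from the same libraries, is set beside members. There Wif1 (-1.47), Nrp1 (-0.85), Runx3 (-2.14), Serpinf1 (0.86) and Calml4 (2.06) passed too, while Rspo1 (-0.45, edgeR adjusted p = 0.53), Col14a1 (0.65, edgeR adjusted p = 0.461), Crabp2 (0.68, edgeR adjusted p = 0.0557) and Col8a2 (3.08, edgeR adjusted p = 0.0596) did not. Calml4 was at 3.51, 3.02, 35.7 and 26.0 CPM in epithelial cells. Calb1 stood at 96.1 and 99.8 against 12.5 and 17.0 CPM, Crabp1 at 1767 and 2376 against 1008 and 1023, and Ptn at 324 and 322 against 1471 and 1157. In the reference 1.24% of 11139 genes passed in either direction.

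Interferon-response genes formed a second group, with 4 of 7 tested list genes higher in KO members and 0 lower (list median 1.24, all genes at 0.00). Ifitm3 rose from 58.1 and 48.8 to 125 and 129 CPM (1.24 ± 0.14), Ifi27 from 13.2 and 16.4 to 45.9 and 35.2 (1.49 ± 0.21) and Bst2, or tetherin, from 2.70 and 4.53 to 21.7 and 20.3 (2.57 ± 0.31). Isg15, the ubiquitin-like modifier, had 2 UMIs in control and 59 in KO members, a ratio of 28.8 (exact 95% interval 7.64 to 244, counting error only). Ifi27l2a, outside the list, rose by 3.16 ± 0.49. The rise was not particular to members. Isg15 (6.06), Ifi27 (2.43), Bst2 (2.79) and Ifi27l2a (4.15) passed in the reference too, while Ifitm3 did not (0.69, edgeR adjusted p = 0.162). In barcodes that were at least 50% haemoglobin, Ifi27 was at 0, 0, 139 and 22.8 CPM of other RNA (0, 0, 14 and 1 UMIs) and Bst2 at 10.7, 4.21, 19.9 and 68.5 (2, 1, 2 and 3 UMIs); the part of free RNA in this result was not tested.

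Epithelial transcripts made up much of the rest. Of 6 tested epithelial genes outside the gate, Krt14, Krt5 and Krt15 fell in KO members and Krt8 and Krt18, keratins of simple epithelium, rose. Krt14, a basal keratin, had 415 UMIs in control and 2 in KO members (ratio 212, exact 95% interval 58.4 to 1758), and Krt5 102 and 2 (ratio 52.2, 14.1 to 436). Krt15 stood at 44.3 and 21.3 against 2.56 and 5.86 CPM. Krt8 stood at 1.89 and 0.35 against 24.2 and 52.3 CPM and Krt18 at 1.08 and 0 against 28.2 and 56.4. Outside the list, Trim29 (35 and 1 UMIs, ratio 35.8, 6.02 to 1454), Krt17 (39 and 2 UMIs, ratio 19.9, 5.16 to 170), Perp, a desmosome-associated protein (-3.00 ± 0.42), and Kremen2 (-2.79 ± 0.47) were lower as well. Bfsp2 (2 and 108 UMIs, ratio 52.8, 14.3 to 442) and Upk3bl (3 and 76 UMIs, ratio 24.8, 8.16 to 123) were higher. These genes moved the same way in the epithelial cells of the libraries, where Krt14 stood at 1777, 982, 2.09 and 3.86 CPM and Krt18 at 14.2, 6.54, 1211 and 829. In the haemoglobin-rich barcodes Krt14 stood at 637, 391.9, 0 and 0 CPM of other RNA and Krt18 at 5.35, 25.3, 258 and 183. The part of free epithelial RNA in these member values was not tested. Pf4, a platelet and macrophage chemokine (-1.90 ± 0.36 SE), fell and Zcchc5 (3.24 ± 0.49 SE) rose. Gm10093, annotated as a processed pseudogene and so uncertain where reads match a near-identical copy, fell (-4.02 ± 0.34 SE) from 35.7 and 25.1 CPM in control members, near its 45.6 and 34.1 in control epithelial cells and 33.0 and 26.2 in the control reference. Without the WT library Bfsp2, Calml4, Ifi27l2a, Isg15, Kremen2, Krt17, Perp and Trim29 lost their calls, and without HET Calml4, Col8a2, Kremen2, Krt17, Pf4 and Trim29 did. The genes called in members numbered 26 without WT, 337 without KO 1 and 185 without KO 2, against 47 with all 4 libraries.

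**Figure D5:**
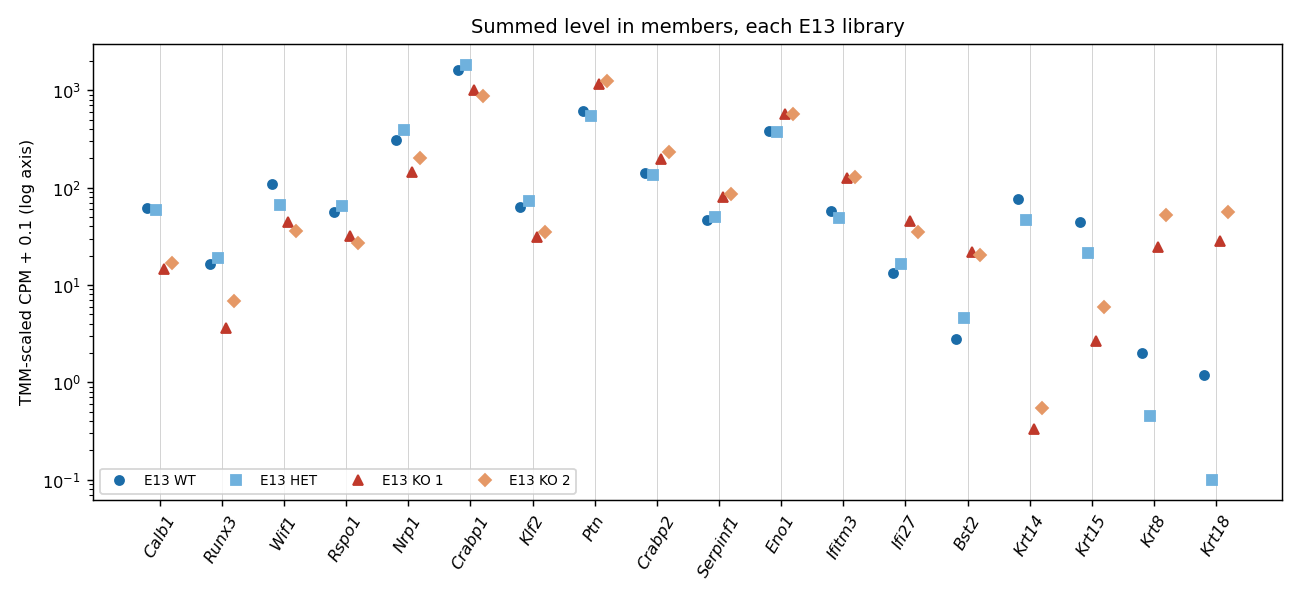
TMM-scaled CPM plus 0.1 (log axis) of 18 genes summed over members, 1 point for each E13 library. For each gene the 2 KO libraries lie on the same side of both control libraries, from Calb1 (61.6 and 58.5 against 14.4 and 16.7 CPM) to Krt18 (1.08 and 0 against 28.2 and 56.4 CPM).

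Whether the KO effect differed between members and reference was tested as an interaction. It passed for 65 of 11490 genes (0.566%, 22 with a higher and 43 with a lower effect in members; 16 and 68 with library size alone), and for 3 of the 47 genes called in members: Klf2, Ptn and Eno1. Klf2, a shear- and inflammation-responsive transcription factor, fell from 63.8 and 72.8 to 31.0 and 35.2 CPM in members and stood at 41.6, 52.4, 49.0 and 42.9 in the reference (difference -1.07, edgeR adjusted p = 0.0177). Eno1, the glycolytic enolase, rose from 379 and 378 to 578 and 575 CPM in members and stood at 418, 420, 443 and 397 in the reference (difference 0.61, edgeR adjusted p = 0.00728). Ptn rose less in members than in the reference (difference -0.97, edgeR adjusted p = 0.00237). The largest negative differences were those of Col8a1 (-1.82), Fgf18 (-1.81), Col11a1 (-1.80), Cemip (-1.63) and Vldlr (-1.44), and none of these 5 was called within members. Col8a1, a collagen VIII chain, stood at 71.6, 141, 61.5 and 70.8 CPM in members and 29.5, 33.3, 56.7 and 93.8 in the reference. The largest positive ones were Pcsk2 (4.46), Gjb2 (2.46), Tfap2b (2.29), Bcam (1.87) and Mt2 (1.82). Gjb2, the gap-junction protein connexin 26, stood at 14.0, 14.3, 9.09 and 22.6 CPM in members and 137, 42.8, 8.50 and 30.4 in the reference, where epithelial genes together were at 946, 261, 111 and 250 CPM; in epithelial cells it was at 660, 481, 469 and 486. Pcsk2 had 22, 21, 1 and 0 UMIs in the reference, so its fitted difference depends on the prior count.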

How the data were processed

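The deposited counts were whole-number UMI counts per gene and barcode, without normalization, per the file headers and values. The submitters' processing notes list Cell Ranger, Seurat and mm10 without a version. The gene table had 27998 genes. Barcodes were gated as described, UMIs of members and reference were summed per library, and low genes were removed with filterByExpr (minimum count 10) before TMM scaling (edgeR 4.0.16, R 4.3.3). Tests were quasi-likelihood F tests with Benjamini-Hochberg adjustment at 0.05 over all genes tested, including the rule genes, which counts leave out; SE is the absolute log2 fold change divided by the square root of F. E13 members against reference got no test (prior count 2). Named genes were the 15 highest and lowest at 50 CPM or more, up to 10 per direction for KO and 5 for the difference, and list genes. Members and the 48 gene lists were chosen with earlier results of these data known. Doublets were scored with scrublet (20 components), 0.8% per 1000 cells being taken. On simulated data for KO in members (10763 genes) the test recovered 56% of 2-fold and 94% of 4-fold changes. For the difference (11500 genes) it recovered 7% and 70%. Every simulated gene had the same dispersion, and the libraries differed only in total counts and in the changes put in. These rates hold for that setting and do not measure the power in the real libraries. Coordinates came from GENCODE M21 (GRCm38, 470 of 470 IDs matched). Some genes met by these rules are not reported here.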

Additional observations from a re-analysis of the deposited data

Results flagged for a closer look

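The share of gated cells that met the marker rule moved in opposite directions at the 2 ages, with both KO libraries above both control libraries at E13 and both below at E15. The gap of KO minus control was 17.5 percentage points at E13 (26.6, 16.9, 33.7 and 44.7% in WT, HET, KO 1 and KO 2) and -5.59 at E15 (15.7, 12.3, 11.1 and 5.76%). The difference between the ages was not tested. Cells with 10 or more Stmn2 UMIs were also more frequent in both KO libraries at E13 and less frequent in both at E15, at 2.31, 2.55, 5.79 and 12.4% of gated cells at E13 and 12.9, 10.4, 4.52 and 1.18% at E15. Of the gated cells with that much Stmn2, 96 of 102 were members at E13 and 59 of 147 met the rule at E15. With Stmn2 left out of the rule, a definition chosen after seeing the data, the gaps were 9.39 points at E13 and 1.86 at E15, and so had the same sign. In KO 2 epithelial cells at E13, Stmn2 had a UMI in 62.2% and Tmem132c in 58.8% of cells, and in 18.9 and 22.3% when thinned to 5000 UMIs.

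The KO effect differed between members and reference, by the interaction test, for 10 named genes. The log2 difference of members minus reference was 4.46 for Pcsk2, 2.46 for Gjb2, 2.29 for Tfap2b, 1.87 for Bcam and 1.82 for Mt2. It was -1.82 for Col8a1, -1.81 for Fgf18, -1.80 for Col11a1, -1.63 for Cemip and -1.44 for Vldlr. Tfap2b, an epithelial and neural crest transcription factor, was at 65.2, 41.5, 8.996 and 18.8 CPM in the reference and 6.75, 8.01, 6.76 and 10.4 in members. In epithelial cells Tfap2b was at 410, 471, 491 and 455 CPM and Bcam at 389, 368, 210 and 153. Mt2 was at 360, 513, 463 and 661 CPM there and Pcsk2 at 25.4, 50.5, 1.88 and 3.19. None of Pcsk2, Gjb2, Tfap2b, Bcam and Mt2 was called within members. The part of epithelial RNA in the reference values was not tested. Each of the 10 genes lost its call in at least 1 alternative, all of them keeping their direction.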

How the results depend on the processing

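The gap in the share of members kept its sign under every alternative run (5.27 to 18.4 points; 11.9 to 23.0 leaving out 1 library). Genes at least 2-fold apart in each E13 library numbered 113, 48 with cells thinned to 5000 UMIs, 73 without red-cell and muscle barcodes (chosen after seeing the data) and 127 to 216 leaving out 1 library, KO 2 giving the 216. Without those barcodes Hbb-bh1 reversed, to 0.51. Of the 48 higher calls of the main setting, 25 could be tested with thinned cells and 11 held. Of its 65 lower calls, 24 could be tested with thinned cells and 13 held. KO calls in members numbered 47, 23 with DESeq2, 272 without the low-count filter, 2 when thinned (3325 genes tested), and 26 to 337 leaving out 1 library: 26 without WT, 337 without KO 1 and 185 without KO 2. In such fits the lone library of an arm was assumed to vary like the other arm. KO calls in the reference numbered 138, 623 without the filter, 269 without red-cell and muscle barcodes, and 134 to 214 leaving out 1 library, the 214 without WT. Calls for the difference numbered 65, 13 with DESeq2, 217 without the filter, 16 thinned, 138 without red-cell and muscle barcodes, and 38 to 107 leaving out 1 library (42 without WT, 38 without KO 1, 107 without KO 2). Of the E13 calls, 27 passed at E15, 11 when thinned, 15 without red-cell and muscle barcodes and 19 to 25 leaving out 1 E15 library. Of the 20 genes named for KO in members, 11 lost their call in at least 1 alternative and none changed direction. The cause of these shifts was not tested, apart from the fewer genes tested when thinned. For KO against control no paired analysis was possible, because the control libraries carry no replicate number and the equally numbered KO libraries are of different ages, which were not compared. Members and reference of the same library were paired, with library as a block in the fit. Depth limits genes under about 10 CPM in members, and 2 residual degrees of freedom limit the KO tests.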
